A study of Mus musculus with 35 samples.

Results

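10 mouse genes of the piRNA pathway and of germ granules were followed through 13 lists of histone H3 peaks from female germ cells. The genes, Ddx4, Piwil1, Piwil2, Piwil4, Tdrd1, Tdrd5, Tdrd9, Mov10l1, Mael and Asz1, were taken by name from 21631 protein-coding genes of the autosomes and X, and all 10 were found. The study mapped H3K4me3, a mark of active and poised promoters, H3K27me3, the Polycomb mark, and H3K36me3, which covers transcribed bodies, by CATCH-seq, an immunoprecipitation of native chromatin for few cells. The cultured groups were oogonia-like cells at c7 and oocyte-like cells at c13 and at c34, all grown from H18, a mouse embryonic stem cell line that carries the reporters Prdm1-mVenus and Dppa3-ECFP. E18.5 oocytes were taken from mice with those reporters, and oocytes with a germinal vesicle (GV) from BDF1 mice. Every group was labelled wild type. The sources used here give no number of animals or cultures. By its title, the study made GV oocytes from stem cells without the somatic cells of an ovary, which sets the cultured stages beside those of animals.

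piRNAs are small RNAs that are loaded into PIWI proteins and guide the silencing of transposons in germ cells. Their precursors are cut and passed on in germ granules, dense bodies near mitochondria that are built from the helicase DDX4 and from proteins with Tudor domains, which bind methylated arginines of PIWI proteins. In mice the loss of most of these genes stops spermatogenesis, whereas females are largely fertile, although oocytes also make piRNAs. Many of these genes have promoters rich in CpG that are silenced by DNA methylation in somatic cells and become active when germ cells lose that methylation.

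The 35 libraries comprised 9 for H3K4me3, 9 for H3K27me3, 8 for H3K36me3 and 9 input libraries. There was 1 list for each stage and mark, and c7 had a list for H3K27me3 alone. GV oocytes had 1 library each for H3K4me3 and H3K27me3, and every other stage and mark had 2 to 4, with no separate lists for these replicate libraries. Differences between stages therefore could not be set against replicate spread, depth was unknown, and nothing below is a test. H3K4me3 covered 135 to 645 Mb, most in GV oocytes, H3K27me3 720 to 1050 Mb, most in c13, and H3K36me3 633 to 1120 Mb, most in c13. A longer list meets more genes, so counts are read against the share of all protein-coding genes called by the same rule, given in parentheses or beside them and named the background. As a check of the cell labels, H3K4me3 lay at the start of 12 of 13 oocyte markers in c13, 13 in c34, 10 in E18.5 and 13 in GV oocytes, where the background was 70.2%, 64.3%, 59.8% and 72.1%. Bmp15, Zp3 and Dppa3 lacked it at E18.5 and Bmp15 in c13. Of 13 markers of gonadal somatic cells it lay at 8, 8, 5 and 9 in the same order (61.5%, 61.5%, 38.5% and 69.2%). These shares were near that background in c13, c34 and GV oocytes and below it at E18.5. The contribution of other cells was not tested. H3K27me3 lay at the starts of 11 of these somatic markers in each of the cultured stages, 10 in E18.5 and 7 in GV oocytes (84.6%, 76.9% and 53.8%), above a background of 43.0% in c7, 57.0% in c13, 40.1% in c34, 36.5% in E18.5 and 25.6% in GV oocytes. At the oocyte markers H3K27me3 lay at 6 starts in c7, 8 in c13, 5 in c34, 6 in E18.5 and 4 in GV oocytes. Their shares were 46.2%, 61.5%, 38.5%, 46.2% and 30.8%, nearer to that background but also above it in every list except c34.

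RefSeq's promoter table for GRCm38.p6 held 9 of the 10 genes. Promoters are 300 bases, with 250 before the start and 50 after it. The 9 promoters held 10 to 48 CpG dinucleotides, Tdrd9 the fewest and Tdrd5 the most, against a median of 14 over 17274 protein-coding genes. The motif CACGTG, the E-box bound by MAX and its partners, which are known regulators of germline genes, was found in 6 of the 9, namely Ddx4, Piwil1, Tdrd1, Tdrd9, Mov10l1 and Mael, and in 8.01% of all promoters. The E2F motif TTCCCGC, searched on both strands, was found in Ddx4 and Tdrd5 and in 6.09% of all promoters. The other motifs searched were the MYB core AACNG, found in all 9 and in 79.1% of promoters, the GC box GGGCGG, found in 5 and in 46.9%, and the box CCAAT, found in 5 and in 39.6%. Each motif was counted on its own on both strands. A match describes the letters and does not show that a factor binds.

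The 250 bases before the start are shown for 4 genes that stand for the kinds of H3K4me3 pattern found at the start used. Ddx4 was marked in every list, Piwil1 in every list but GV, and Tdrd9, with the fewest CpG, in every list. Piwil4 was marked at this start in GV oocytes alone. Capitals are the E-box and E2F matches, read from 5′ to 3′ along the gene. Ddx4 lies at chr13:112652311-112652560 on the minus strand, Piwil1 at chr5:128735996-128736245 on the plus strand, Tdrd9 at chr12:111971309-111971558 on the plus strand and Piwil4 at chr9:14740673-14740922 on the minus strand.
Ddx4: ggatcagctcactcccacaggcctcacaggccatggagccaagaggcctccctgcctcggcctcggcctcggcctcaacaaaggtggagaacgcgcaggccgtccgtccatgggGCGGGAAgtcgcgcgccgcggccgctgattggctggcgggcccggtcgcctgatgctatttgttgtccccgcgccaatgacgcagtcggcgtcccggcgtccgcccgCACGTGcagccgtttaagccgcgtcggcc
Piwil1: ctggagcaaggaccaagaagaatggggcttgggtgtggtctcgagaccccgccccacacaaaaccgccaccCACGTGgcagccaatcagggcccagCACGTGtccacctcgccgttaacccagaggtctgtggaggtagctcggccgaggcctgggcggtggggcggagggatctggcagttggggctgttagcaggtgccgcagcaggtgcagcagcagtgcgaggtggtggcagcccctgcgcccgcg
Tdrd9: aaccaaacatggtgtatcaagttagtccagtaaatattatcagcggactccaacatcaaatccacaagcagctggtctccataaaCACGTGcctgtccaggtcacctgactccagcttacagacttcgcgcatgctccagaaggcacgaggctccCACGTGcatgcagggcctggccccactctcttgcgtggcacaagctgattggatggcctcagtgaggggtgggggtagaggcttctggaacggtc
Piwil4: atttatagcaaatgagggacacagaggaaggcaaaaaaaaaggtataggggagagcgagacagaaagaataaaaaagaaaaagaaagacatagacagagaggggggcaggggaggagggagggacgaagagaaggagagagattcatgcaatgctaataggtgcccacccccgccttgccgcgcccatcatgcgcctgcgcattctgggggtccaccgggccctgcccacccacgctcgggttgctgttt
In Ddx4 the E-box began 29 bases and the E2F match, on the opposite strand, 136 bases before the start. Piwil1 and Tdrd9 each carried a pair of E-boxes, which began 179 and 154 bases before the start in Piwil1 and 165 and 95 in Tdrd9. Piwil4 had neither motif, and its 300 bases held 11 CpG.

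A gene start was called marked when a peak covered at least 1 bp within 1 kb of it. H3K4me3 marked 8 of the 10 genes in c13, where 70.2% of all protein-coding genes were called, 8 in c34 (64.3%), 8 in E18.5 (59.8%) and 8 in GV oocytes (72.1%). The counts in c13 and GV oocytes were thus near the background. At the starts used, the genes were the same in c13, c34 and E18.5 oocytes. Among all genes 10.9% were called in c13 and not at E18.5 and 0.509% the other way. In GV oocytes the outer start of Piwil4, the one used, was marked and Piwil1 was not. An inner start of Piwil4 was marked in c13 and E18.5 oocytes and not in c34 or GV oocytes. Among all genes 10.8% were called in GV oocytes and not in c34 and 3.07% the other way, and 1 of the 10 genes fell in each class. Ddx4, Tdrd1, Tdrd5, Tdrd9, Mov10l1, Mael and Asz1 were marked in all 4 lists, and in each list their starts lay inside a peak. The share of all genes marked in all 4 lists was not counted. In the pairs of lists compared, 55.6% (E18.5 and GV oocytes) to 61.3% (c34 and GV oocytes) of all genes were marked in both. Promoters with many CpG were called more often in general. With all promoters in 3 equal groups by CpG number, the middle group (6 to 21) was called for 88.5% of genes in c13, 76.8% in c34, 72.6% in E18.5 and 82.1% in GV oocytes. The top group (21 to 65) gave 99.6%, 95.7%, 96.3% and 95.0% in the same order, and all 9 genes with a promoter sequence lay in these groups.

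**Figure D1:**
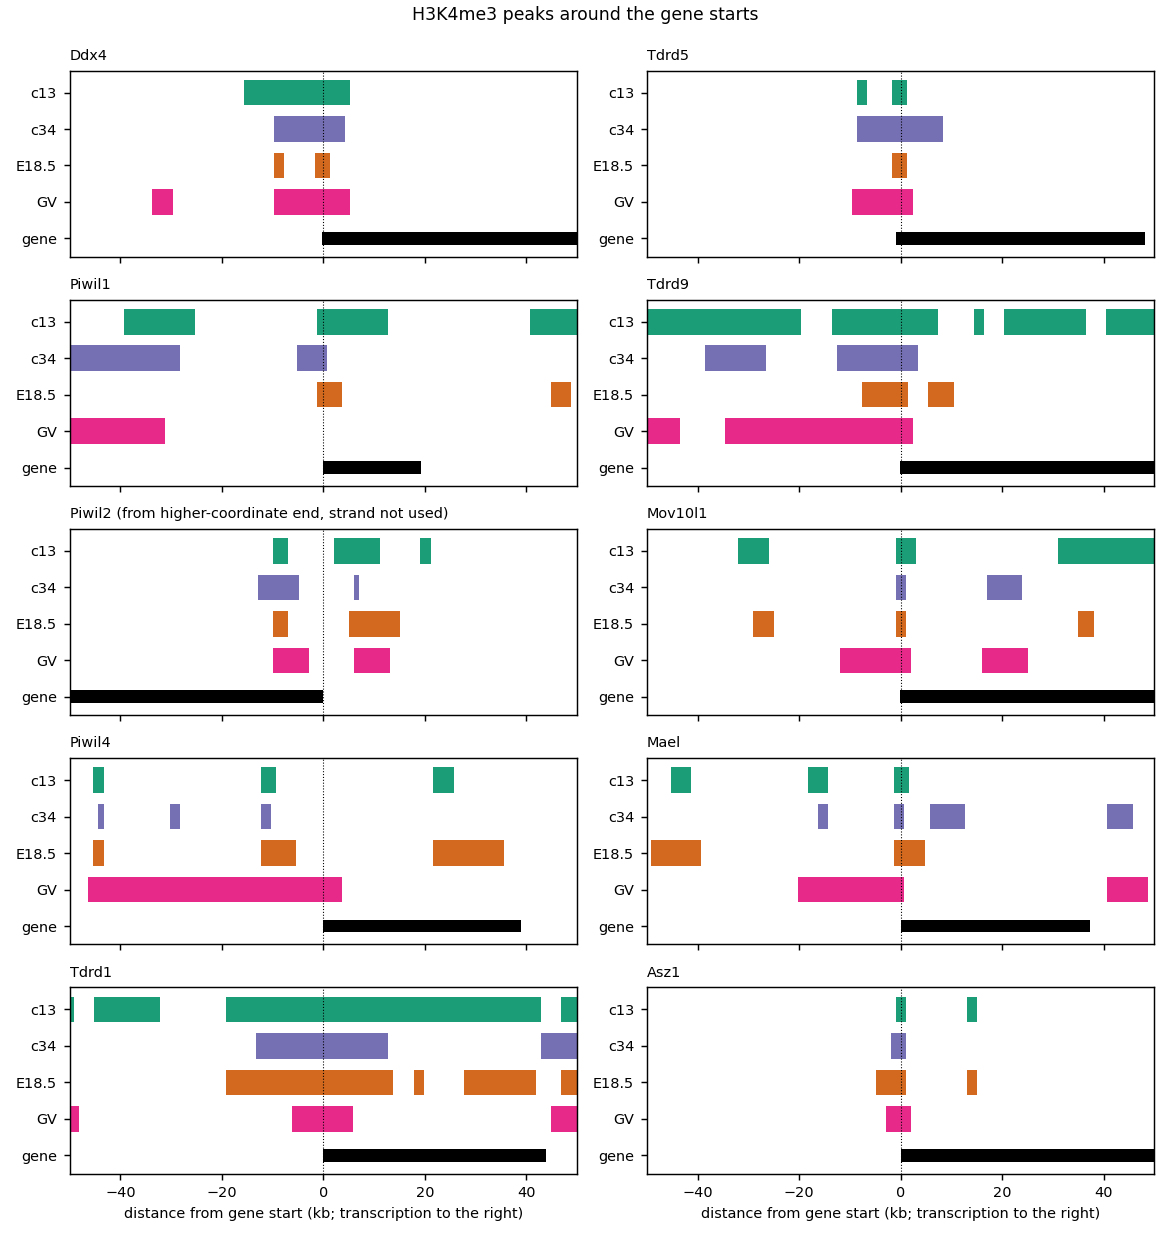
H3K4me3 peaks (coloured bars, 1 row per stage) within 50 kb of each gene start, with the gene in black and distance in kb on the horizontal axis; Piwil2 is drawn from its end of higher coordinate, without strand. Piwil1 has no GV peak at its start, Piwil4 is covered at its start by a single GV peak of 50 kb, and Piwil2 has a peak inside the gene at every stage.

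The PIWI genes encode the Argonaute-like proteins that bind piRNAs. Piwil1 (MIWI, which binds the abundant piRNAs of late spermatogenesis) lies on chromosome 5, 128736071 to 128755474, with its start at 128736246. An H3K4me3 peak held its start in c13 (14 kb), c34 (6 kb) and E18.5 oocytes (5 kb). No GV peak touched the gene, and the nearest lay 31246 bp from the start. In c13 the peak ran 12.8 kb into the gene and 1.25 kb upstream, whereas in c34 it ran 0.754 kb into the gene and 5.25 kb upstream. The c34 peak thus lay mostly before the gene, and 4.79% of the body was covered in c34 against 66.6% in c13 and 20.3% at E18.5.

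Piwil4 (MIWI2, the nuclear PIWI protein that directs DNA methylation of transposons in fetal male germ cells) lies on chromosome 9, 14701776 to 14740672, on the minus strand. At its first start, 14740672, there was no peak in c13, c34 or E18.5 oocytes, the nearest lying 9329, 10329 and 5329 bp away. In GV oocytes this start lay in a peak of 50 kb, which reached 46.3 kb upstream and 3.67 kb into the gene and was at least as wide as 87.2% of GV peaks over gene starts. RefSeq gives a second start inside the gene, at 14718387. The mark lay at that start in c13 and E18.5 oocytes, with 1614 bp of its 2 kb window covered in each, and not in c34 or GV oocytes. The peak there was 4 kb wide in c13 (14715001 to 14719000) and 14 kb at E18.5 (14705001 to 14719000), so the earlier stages carried H3K4me3 at the inner start and GV oocytes at the outer one. No H3K4me3 peak touched Piwil4 in c34.

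Piwil2 (MILI, the PIWI protein that also binds piRNAs in oocytes) lies on chromosome 14, 70372477 to 70436898, and was judged at both annotated ends. Neither end was marked by H3K4me3 in any list. Each list nevertheless held 1 peak inside the gene, near the end of higher coordinate: 70427001 to 70430000 in both c13 and E18.5 oocytes, 70424001 to 70432000 in c34 and 70427001 to 70434000 in GV oocytes. These peaks were 3, 8, 3 and 7 kb wide in c13, c34, E18.5 and GV oocytes, and all held the stretch from 70427001 to 70430000. The rule at the ends misses this peak. With windows of 5 kb the peak inside the gene gave a call in c34 and GV oocytes, 4898 and 2898 bp from the end. The c13 call at 5 kb came from another peak, 70439001 to 70448000, which lay outside the gene and 2103 bp beyond that end. An end of Polr3d lay 1850 bp from an end of Piwil2.

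Ddx4 (the VASA helicase, the classic marker of germ granules) lies on chromosome 13, 112598333 to 112652633, on the minus strand. The peak over its start was 21 kb wide in c13, 14 kb in c34, 3 kb in E18.5 and 15 kb in GV oocytes. In c34 and GV oocytes the upstream edge was the same, 9.69 kb before the start. The start of Slc38a9 lay 8.46 kb upstream of Ddx4 and inside the same peak in c13, c34 and GV oocytes. At E18.5 the peak over the Ddx4 start reached 1.69 kb upstream. The Slc38a9 start then lay in a separate peak, from -9.69 to -7.69 kb. The E18.5 peak over the Ddx4 start, with 1.31 kb inside the gene, thus lay close around it, while single c13, c34 and GV peaks spanned both genes' starts.

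The Tudor domain genes encode scaffolds of the granules. Tdrd1, which binds MILI, lies on chromosome 19, 56826171 to 56870012, and had the widest start peaks of the 10 genes in c13, c34 and E18.5 oocytes. They were 62 kb in c13, 26 kb in c34, 33 kb in E18.5 and 12 kb in GV oocytes. The E18.5 peak was at least as wide as 99.7% of the peaks over gene starts in that list, and the GV peak as 44.5% in its own. H3K4me3 covered 97.7% of the Tdrd1 body in c13, 31.6% in c34, 68.0% in E18.5 and 13.3% in GV oocytes. Coverage was thus higher in c13 and E18.5 oocytes than in c34 and GV oocytes. The start of Ccdc186, 4.01 kb upstream, lay in the same peak in all 4 lists, and the other RefSeq starts of Tdrd1 were covered in all 4 as well.

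Tdrd5, which is needed for granule assembly, lies on chromosome 1, 156255296 to 156304304, and had start peaks of 3 kb in c13, 17 kb in c34, 3 kb in E18.5 and 12 kb in GV oocytes. The peaks of c13 and E18.5 oocytes had the same edges, 1.65 kb before and 1.35 kb after the start. Tdrd9, which joins a helicase and a Tudor domain, lies on chromosome 12, 111971488 to 112068854. Its start peak was 21 kb wide in c13, 16 kb in c34, 9 kb in E18.5 and 37 kb in GV oocytes. In c13 5 separate peaks touched the gene and covered 49.7% of it, against 6.69% in both c34 and E18.5 oocytes and 2.58% in GV oocytes. The GV peak was therefore the widest over the start and covered the least of the gene, since 34.6 kb of it lay upstream.

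Mov10l1 (the RNA helicase that feeds piRNA precursors into processing) lies on chromosome 15, 88982891 to 89055152. Its start peak was 4 kb in c13, 2 kb in c34 and E18.5 oocytes and 14 kb in GV oocytes. The GV peak took in the start of Mlc1, 4.44 kb upstream, and the other peaks did not. In c13 peaks further inside the gene brought coverage to 46.0%, against 11.2% in c34, 5.69% in E18.5 and 15.4% in GV oocytes. Mael (maelstrom, a granule protein of transposon silencing) lies on chromosome 1, 166201385 to 166238744. It had peaks of 3 kb in c13, 2 kb in c34, 6 kb in E18.5 and 21 kb in GV oocytes, the last with 20.3 kb upstream and 0.743 kb inside the gene. Asz1 (GASZ, which anchors granules at the mitochondrial surface) lies on chromosome 6, 18050964 to 18109061. Its peaks were 2, 3, 6 and 5 kb in c13, c34, E18.5 and GV oocytes. It was the only one of the 7 genes marked in all lists whose peak stayed at or below 6 kb throughout.

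**Figure D2:**
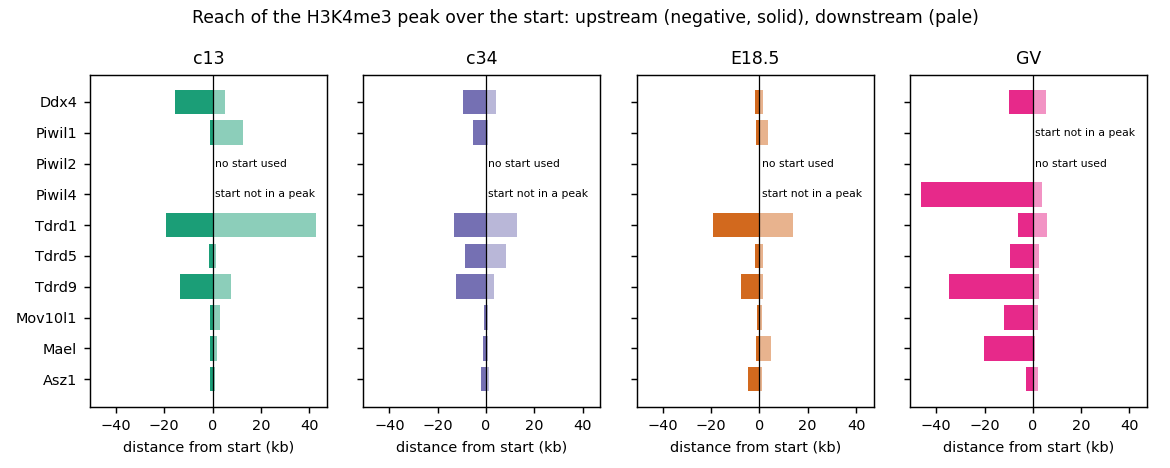
Reach in kb of the H3K4me3 peak over each start, upstream (negative, solid) and downstream (pale), in 4 panels by stage. The 8 GV peaks all reach further upstream than downstream, with Piwil4 (46.3 kb), Tdrd9 (34.6 kb) and Mael (20.3 kb) the longest, whereas c13 Tdrd1 reaches 42.8 kb into its gene.

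In GV oocytes all 8 peaks reached further upstream than into the gene, with medians of 10.8 kb upstream and 2.39 kb downstream. Among all 12115 gene starts inside a GV peak the share was 61.9%, and the medians were 7.53 and 2.93 kb. In c34 this held for 7 of 8 genes (48.6% of all such genes), at E18.5 for 5 of 8 (43.4%) and in c13 for 3 of 8 (37.2%). The median width over the marked starts was 9 kb in c13, 10 kb in c34, 5.5 kb in E18.5 and 14.5 kb in GV oocytes, where all such genes gave 7, 7, 5 and 15 kb. The genes' median widths were thus within 3 kb of those of other genes in each list.

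H3K27me3 lay at most of the starts in c7 and c13 and at few in the other lists. It marked 8 of 10 starts in c7, where 43.0% of all genes were called, and the same 8 in c13 (57.0%). Among all genes 34.1% were marked in both of these lists, 8.85% in c7 alone of them and 22.9% in c13 alone. The counts were 3 in the c34 list (40.1%), 4 in the E18.5 list (36.5%) and 2 in the GV list (25.6%). Without peaks of 1 Mb or more, 7 of the starts were marked in c7 (39.9% of all genes) and 5 in c13 (42.0%), with Piwil1, Tdrd1 and Tdrd9 lost in c13. Of the genes marked in c13, Ddx4, Piwil1, Piwil2, Tdrd1 and Mael were not marked in c34, and no gene was marked in c34 that was not in c13. Among all genes, 24.2% were marked in c13 and not in c34 and 7.30% the other way. Tdrd9 was called in the c34 list but not in the GV list, as were 17.1% of all genes, and none of the 10 was called the other way (2.63%). At least 20% of the body was covered for 8 genes in c7 (41.4% of all genes) and 9 in c13 (54.2%). This held for 3 genes of the c34 list (39.5%), 3 of the E18.5 list (35.3%) and 2 of the GV list (26.6%). The counts of c34, E18.5 and GV oocytes were near these shares, and those of c7 and c13 were above them.

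**Figure D3:**
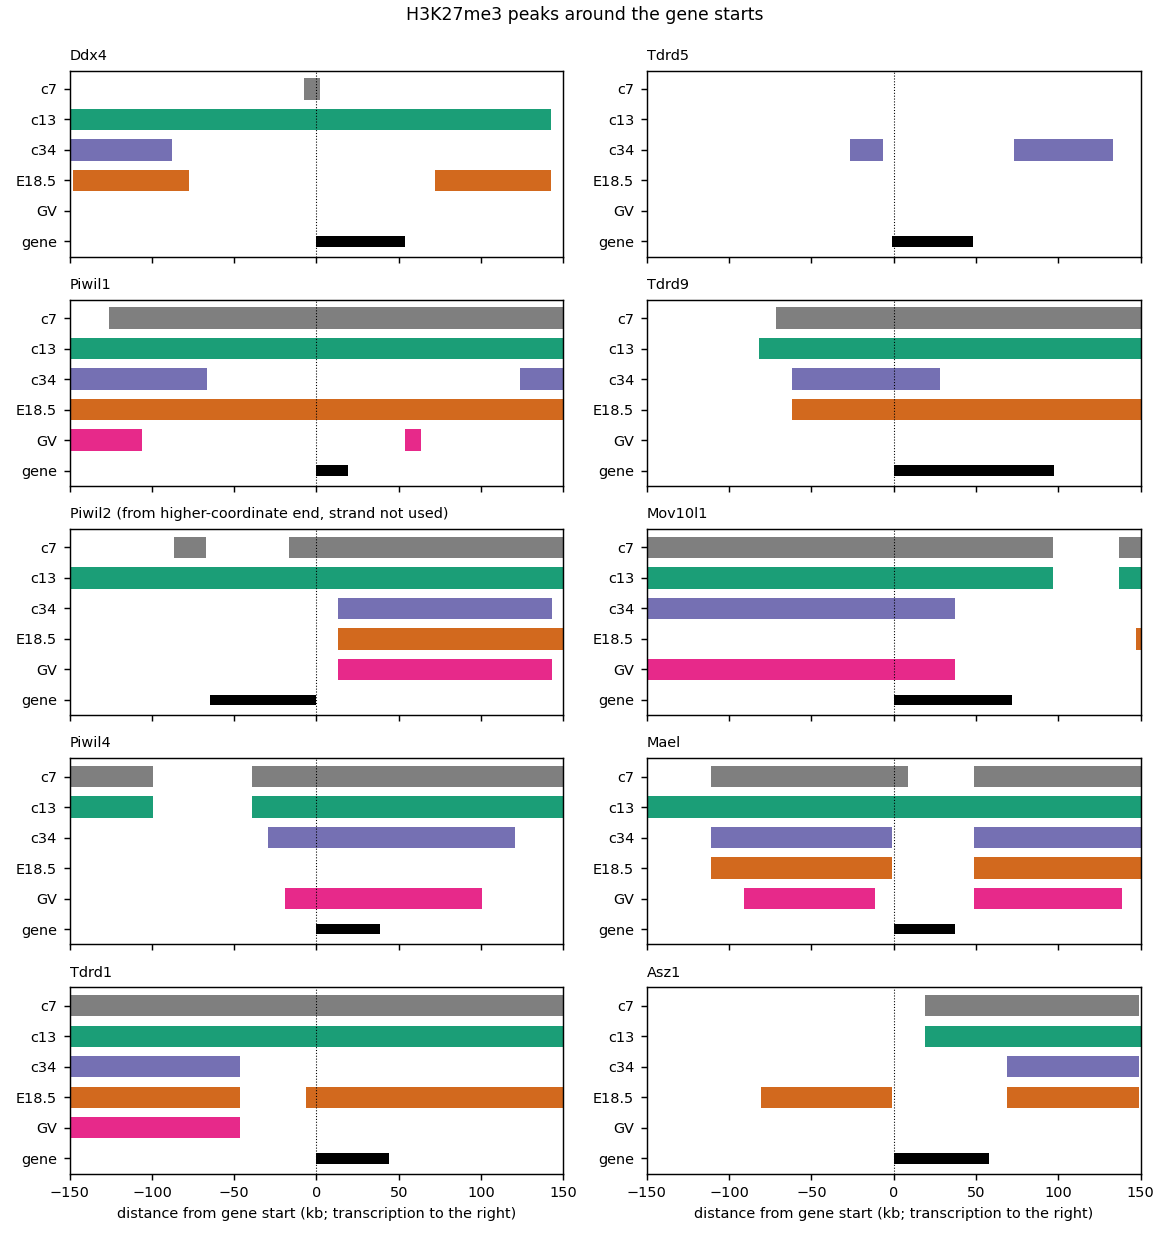
H3K27me3 peaks (coloured bars, 1 row per stage) within 150 kb of each gene start, with the gene in black and distance in kb on the horizontal axis; Piwil2 is drawn from its end of higher coordinate. At Ddx4 a c7 peak of 10 kb sits on the start and c13 covers the whole gene, Tdrd5 has no peak at its start at any stage, and Piwil4 and Mov10l1 are covered in c34 and GV oocytes and not at E18.5.

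Among the PIWI genes, Piwil1 was wholly covered by H3K27me3 in c7, c13 and E18.5 oocytes, by peaks of 640, 1150 and 1780 kb. In c34 and GV oocytes the nearest peaks lay 66246 and 53755 bp from its start. Piwil4 was wholly covered in c7, c13, c34 and GV oocytes, by peaks of 260, 450, 150 and 120 kb, and at E18.5 the nearest peak was 260672 bp away. The GV oocyte therefore had H3K27me3 over the whole of Piwil4 and H3K4me3 at its outer start. Piwil2 was covered for 26.2% in c7 and 100% in c13. In c34, E18.5 and GV oocytes a peak began at the same position, 13103 bp beyond the end of higher coordinate, and the gene was free of the mark.

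Ddx4 had a focal c7 peak, 112650001 to 112660000, a single step of the 10 kb grid on which these peaks lie. It held the start and 4.85% of the body. In c13 a peak of 350 kb covered all of Ddx4, and in the other lists the nearest peaks were 87691 bp (c34), 72310 bp (E18.5) and 212310 bp (GV) from the start. Mael, too, was reached from its start in c7, where a peak of 120 kb covered 23.4% of the body, and was wholly covered in c13. In c34 and E18.5 oocytes the edge of the peak lay 1257 bp before the Mael start, so these calls turn on a single grid step.

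Tdrd1 was wholly covered in c7, c13 and E18.5 oocytes, by peaks of 720, 5250 and 510 kb, and in c34 and GV oocytes the nearest peak ended at the same point, 46209 bp from the start. Tdrd9 was wholly covered in c7, c13 and E18.5 oocytes and for 29.3% in c34, and the nearest GV peak was 168442 bp away. Mov10l1 was wholly covered in c7 and c13 by a peak of the same edges, 88790001 to 89080000, and for 51.4% in both c34 and GV oocytes, where the peaks ended at the same position, 89020000. At E18.5 it was free of the mark. Tdrd5, whose promoter had the most CpG, was marked in none of the 5 lists and had 0% of its body covered in each, with the nearest peak 6653 bp away in c34 and at least 416653 bp away in the others. Asz1 was covered for 67.2% in c7 and c13 in the part far from its start, and its E18.5 call rests on 61 bp of a peak that ended 940 bp before the start.

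H3K36me3 was called over a body when peaks covered at least 20% of it. It was called in 9 of the 10 genes in c13 (67.8% of all genes), c34 (63.5%) and GV oocytes (62.2%) and in 3 genes at E18.5 (22.1%). The 9 genes of c34 and GV oocytes were the same, all but Piwil4. The covered share was identical in c34 and GV oocytes for all 10 genes: 100% for Ddx4, Piwil1, Piwil2, Tdrd1, Tdrd5, Tdrd9, Mov10l1 and Asz1, 76.6% for Mael and 0% for Piwil4. Over all genes 76.6% had identical shares in these lists. At Mael both lists held the same peak, 166200001 to 166230000, which ended 8744 bp inside the gene from its start. At Mov10l1 both held 88980001 to 89450000. Except at Mael, each called body lay wholly within a wider peak. These peaks were 110 kb (Asz1) to 1320 kb (Tdrd5) in c34 and 120 kb (Asz1) to 700 kb (Tdrd9) in GV oocytes. A share of 100% thus shows that the region was covered, and gives no detail within the gene.

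The c13 list gave no detail on single genes, because all 9 bodies lay in peaks of 1 Mb or more, from 1050 kb at Tdrd5 to 17610 kb at Mov10l1. Without such peaks 0 of the 10 bodies were called in c13 and 11.8% of all genes. Asz1, which was not called in c13, was wholly covered at the other 3 stages. At E18.5 Ddx4, Piwil2 and Asz1 were wholly covered, by peaks of 190, 1860 and 200 kb, and the other 7 genes had 0% covered. Without peaks of 1 Mb or more the E18.5 count was 2, with Piwil2 lost (13.5% of all genes), and the c34 count 8, with Tdrd5 lost (60.7%). Of the genes without the mark at E18.5, Piwil1, Tdrd1, Tdrd5, Tdrd9, Mov10l1 and Mael had it in GV oocytes, and 48.4% of all genes were likewise called in GV oocytes and not at E18.5.

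**Figure D4:**
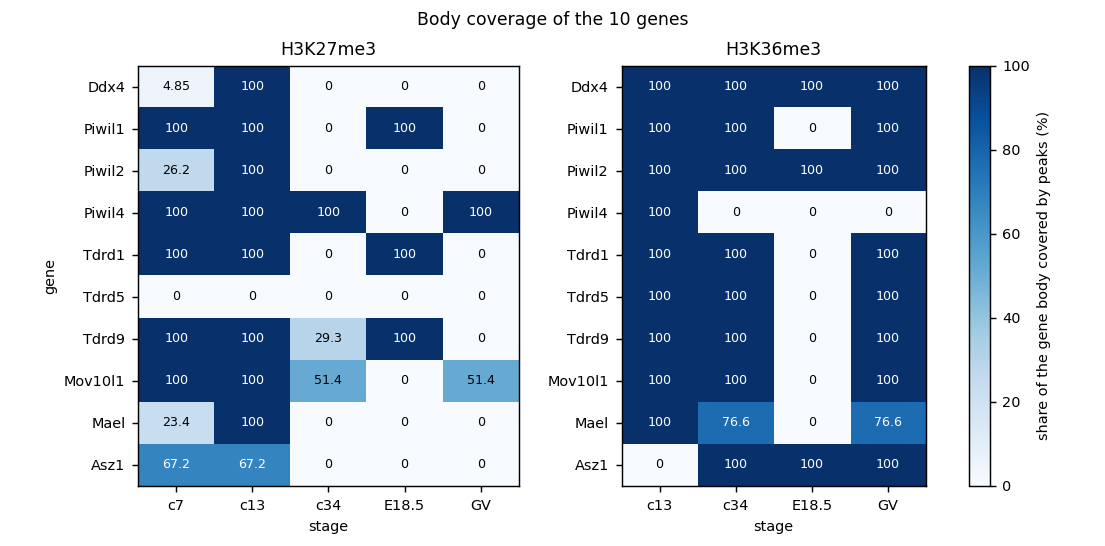
Share of each gene body covered by H3K27me3 (left, 5 stages) and H3K36me3 (right, 4 stages), in percent, with the value in each cell. H3K36me3 values are identical in c34 and GV oocytes for all 10 genes, and Piwil4 has 0% H3K36me3 and 100% H3K27me3 in both.

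Combining the marks, 6 of the 10 genes in c34 had H3K4me3 at the start, H3K36me3 over the body and no H3K27me3 at the start, as had 39.0% of all genes. They were Ddx4, Piwil1, Tdrd1, Tdrd5, Mael and Asz1. In GV oocytes 6 genes had this combination (46.6% of all genes), with Tdrd9 in place of Piwil1. In c13 6 genes carried all 3 marks (39.3% of all genes), namely Ddx4, Piwil1, Tdrd1, Tdrd9, Mov10l1 and Mael, and the wide c13 peaks of both broad marks bear on that number. At E18.5 Tdrd5, Mov10l1 and Mael had H3K4me3 alone (33.9% of all genes), and Piwil1, Tdrd1 and Tdrd9 had H3K4me3 with H3K27me3 (13.4%). Tdrd9 and Mov10l1 had all 3 marks in c34 (13.6%), and Mov10l1 had them in GV oocytes (6.08%). At E18.5 Asz1 was called for all 3 (3.78%), with its H3K27me3 call resting on 61 bp.

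The pathway was widened to 37 other genes: 19 of piRNA processing and Tudor proteins, 8 of nuclear silencing and piRNA transcription and 10 RNA-binding proteins of granules, of which Dazl is also among the oocyte markers. H3K4me3 marked 35 of their starts in c13, 33 in c34, 31 in E18.5 and 34 in GV oocytes, shares of 94.6%, 89.2%, 83.8% and 91.9% against a background of 70.2%, 64.3%, 59.8% and 72.1%. The starts that differed between lists were few. Tdrd7, a Tudor scaffold, and Morc1, a factor of transposon silencing, were marked in GV oocytes alone. Fkbp6, a co-chaperone of piRNA loading, and Mov10, the widely expressed relative of Mov10l1, were marked in the other 3 lists and not in GV oocytes. Spocd1, which links MIWI2 to DNA methylation, was marked in c13 and GV oocytes, and Dnmt3l, the cofactor of de novo methyltransferases, in all but E18.5 oocytes. Nanos3 was marked in c13 alone and Nanos2 in all but E18.5 oocytes. The nuclear silencing group had 7, 6, 5 and 8 of 8 starts marked in c13, c34, E18.5 and GV oocytes.

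Of the 37 starts H3K27me3 marked 15 (40.5%) in c7, 25 (67.6%) in c13, 9 (24.3%) in c34, 10 in E18.5 and 4 (10.8%) in GV oocytes. With a background of 43.0%, 57.0%, 40.1%, 36.5% and 25.6%, the share was near it in c7, above it in c13 and below it in the other 3 lists. Among the 19 processing genes, Tdrd6 and Kif17 were marked in all 5 lists, and Tdrd12, Rnf17, Stk31, Pld6, Exd1, Mov10 and Wdr77 in none. The shares of all genes marked in all 5 lists or in none were not counted. H3K36me3 was called over 29 bodies in c13 (78.4%), 35 in c34 (94.6%), 12 in E18.5 (32.4%) and 29 in GV oocytes (78.4%), against a background of 67.8%, 63.5%, 22.1% and 62.2%. For the 10 genes of the main list, as for these 37, H3K27me3 was called at fewer starts in c34 than in c13 and H3K36me3 over fewer bodies at E18.5 than elsewhere, as it was for all genes. Of 10 housekeeping genes, H3K4me3 marked 9 starts in c13, 10 in c34, 9 in E18.5 and 10 in GV oocytes. H3K36me3 was called over 8, 9, 3 and 9 of their bodies in that order. Shares above the background were thus not particular to the pathway.

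**Figure D5:**
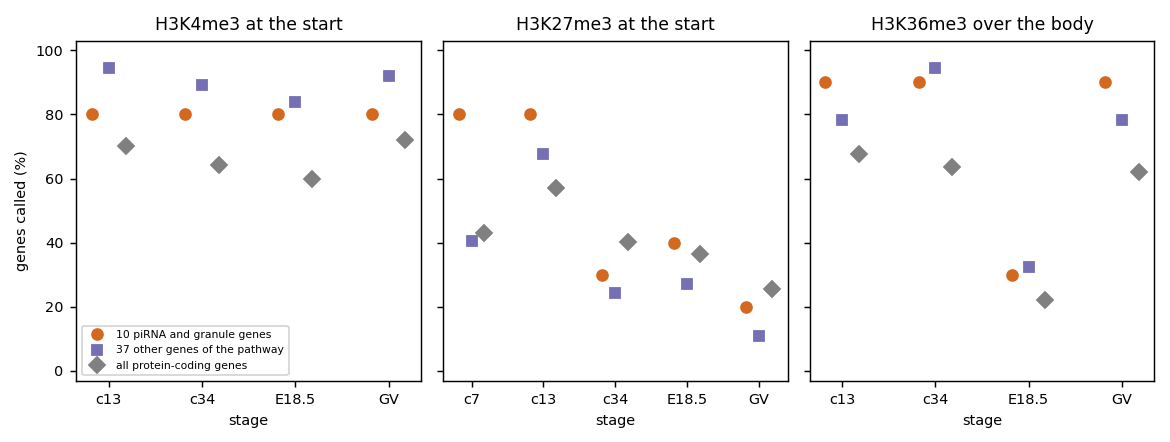
Percent of genes called for each mark and stage: the 10 genes (circles), 37 other genes of the pathway (squares) and all protein-coding genes (diamonds). The 10 genes lie at 80.0% for H3K4me3 in every list and for H3K27me3 in c7 and c13, and fall to 20.0% for H3K27me3 in GV oocytes.

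Likeness between genes was measured as the mean absolute difference over 26 values, the covered share of the 2 kb around the start and of the body in each of the 13 lists. Within the 10 genes the closest pair was Piwil1 and Tdrd1, 8.89 percentage points apart. Piwil4 was at least 33.8 points from each of the other 9, while the others had a closest gene within the list at 8.89 to 20.3 points. Among all genes outside the list, where a close match is likelier because there are many more of them, the closest gene to Tdrd5 was Gdap2 (0.215 points), to Tdrd1 Dazap2 (0.890), to Piwil1 Lrp1 (1.86), to Piwil4 Plcb2 (2.17) and to Mov10l1 Padi2 (2.47). For Tdrd9 it was Mpc1 (3.30), for Ddx4 Abhd6 and for Piwil2 1700012A03Rik (4.09 each), for Mael Cnnm2 (4.25) and for Asz1 Plekhm3 (4.42). The median gene was 35.7 to 48.0 points away. These likenesses describe peak coverage and nothing of shared function.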

How the data were processed

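CATCH-seq peaks of 3 marks at 5 stages were deposited as 13 lists in an other unit than counts, peak positions in base pairs, per the file headers, with no score. Starts count from 0 and ends are inclusive, on a grid of 1 kb (H3K4me3) or 10 kb (other marks). Per the submitters' processing notes, the tools included the peak callers MACS2 2.1.1 and SICER 0.0.41, the aligner Bowtie2 2.3.4.1 and, for reads, cutadapt 1.9.1, Trim Galore 0.4.1, Picard 2.18.23 and SAMtools 1.7, on builds mm10 and GRCm38.p3. Which caller made which list, its threshold, the use of input and any pooling of libraries: not given in the sources used here. Input libraries and peaks on Y were not used.

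Coordinates are 1-based on GRCm38, with genes and promoters from RefSeq tables of GRCm38.p6. The gene start was the promoter table's start nearest the annotated gene end. For 4357 of 21631 genes, Piwil2 among them, it is not in the table, and the better covered of both ends was used. Coverage arithmetic was tested on simulated data. Members and lists were chosen with earlier results of these data known. Named were the 10 members, pathway genes whose H3K4me3 start call differed between stages, and each member's closest gene by coverage. H3K27me3 examples in the pathway and the promoters printed were picked after their values were seen. Alternatives changed the window, gene end, overlap, body share and peak widths. Work used Python 3.11.15, numpy 2.4.6, pandas 2.3.3 and matplotlib 3.10.9.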

Additional observations from a re-analysis of the deposited data

How the results depend on the processing

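Of 85 alternative counts for the 13 lists, 76 stayed within 1.5 times the reported count. Where 8 or 9 of the 10 genes were called, no rise could pass that limit. The genes' H3K36me3 shares were 0%, 76.6% or 100%, so the other body cutoffs could not change those counts. With each list cut to its wider peaks, from the median width up, the count was 5 genes with H3K4me3 at the start in c13, 5 in c34 and 5 at E18.5. Keeping only the widest peaks, up to the covered length of the shortest list of that mark, gave 4 in c13, 4 in c34 and 0 in GV oocytes for H3K4me3, and 3 in c13 for H3K27me3. Without peaks of 1 Mb or more, H3K27me3 marked 5 starts in c13 and H3K36me3 0 bodies in c13. Windows, either gene end, overlap and body share moved no count by over 1.5 times. Leaving out a library was not possible, since the lists are 1 per stage and mark. No paired analysis was possible because the columns carry no replicate numbers. Unknown depth and the 10 kb grid limit single calls.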
